A study of Mus musculus with 21 samples.

Results

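The genes described here are 8 writers and readers of histone acetylation. They are the lysine acetyltransferases Ep300 (p300), Crebbp (CBP), Kat2a (GCN5), Kat2b (PCAF) and Kat5 (TIP60), and Brd1, Brd2 and Brd3, named for their bromodomains. They were taken by symbol from the table of counts per gene, and all 8 were found among its 24047 genes. All 8 also passed the filter on low counts, which kept 14467 genes in the drug libraries and 13612 in the hairpin libraries. RNA came from SMB21, a mouse cell line of sonic hedgehog (SHH) medulloblastoma, a tumour of the cerebellum. Cells in DMEM/F12 with B-27 received quisinostat (JNJ), an inhibitor of histone deacetylases (HDACs), or the solvent DMSO, each for 2 h or 24 h, giving the groups JNJ 2 h, DMSO 2 h, JNJ 24 h and DMSO 24 h. Other cells received a virus with a short hairpin RNA against luciferase (shLuc, the control), Hdac1 (shHdac1) or Hdac2 (shHdac2), and puromycin, the selection that all 3 hairpin groups share. Each of the 7 groups has 3 libraries. The labels state neither the drug dose nor the number of hairpins per gene. They also do not say whether the libraries of a group come from separate cultures, so p-values reflect library-to-library spread that may be only technical.

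Acetyl groups on histone tails are placed by acetyltransferases, removed by HDACs and bound by bromodomains. CBP and p300 are a pair of related coactivators that acetylate histones at enhancers and promoters. GCN5 and PCAF are the alternative catalytic subunits of the SAGA and ATAC complexes, and TIP60 is the catalytic subunit of a complex that also serves in DNA repair. Brd2 and Brd3 belong to the BET family, whose paired bromodomains read acetylated histones at active genes. Brd1, also called BRPF2, has a bromodomain but is no BET gene: it is a scaffold of complexes with acetyltransferases of the MYST family. Quisinostat acts on the erasers of the same mark, so the comparisons ask whether the transcripts of its writers and readers changed in the same cells.

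Promoter sequences were found for all 8 genes in RefSeq tables of build GRCm38.p6, as windows of 300 bases from 250 before to 50 after the transcription start. The most upstream start was taken for Kat2b (2 starts), Kat5 (2) and Brd2 (3), and their other starts were not examined. 4 windows are shown as the extremes of the set. Crebbp and Brd3 have the most CpG dinucleotides and Kat2b the fewest in these windows. Kat2b also had the largest fall at 24 h, and a link between CpG count and change was not tested. Kat5 overlaps a protein-coding neighbour, Rnaseh2c, over 426 exon bases. The windows lie at chr16:4213355-4213654 (minus strand, Crebbp), chr2:27475349-27475648 (minus strand, Brd3), chr19:5610045-5610344 (minus strand, Kat5) and chr17:53566721-53567020 (plus strand, Kat2b). Each is written 5′ to 3′ on the strand of the gene, with every CpG in capitals.
Crebbp: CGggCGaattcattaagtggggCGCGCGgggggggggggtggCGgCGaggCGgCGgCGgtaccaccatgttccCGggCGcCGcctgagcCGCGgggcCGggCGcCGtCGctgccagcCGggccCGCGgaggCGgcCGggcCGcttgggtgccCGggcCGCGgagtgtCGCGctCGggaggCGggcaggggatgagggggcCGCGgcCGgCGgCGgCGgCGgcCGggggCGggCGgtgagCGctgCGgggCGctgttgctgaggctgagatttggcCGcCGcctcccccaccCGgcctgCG
Brd3: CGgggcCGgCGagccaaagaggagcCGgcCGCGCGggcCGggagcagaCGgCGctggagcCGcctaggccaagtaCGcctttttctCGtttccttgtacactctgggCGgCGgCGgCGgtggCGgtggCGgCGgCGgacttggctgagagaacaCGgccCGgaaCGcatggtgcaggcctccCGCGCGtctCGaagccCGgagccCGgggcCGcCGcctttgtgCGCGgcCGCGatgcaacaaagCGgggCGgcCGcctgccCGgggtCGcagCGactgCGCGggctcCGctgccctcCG
Kat5: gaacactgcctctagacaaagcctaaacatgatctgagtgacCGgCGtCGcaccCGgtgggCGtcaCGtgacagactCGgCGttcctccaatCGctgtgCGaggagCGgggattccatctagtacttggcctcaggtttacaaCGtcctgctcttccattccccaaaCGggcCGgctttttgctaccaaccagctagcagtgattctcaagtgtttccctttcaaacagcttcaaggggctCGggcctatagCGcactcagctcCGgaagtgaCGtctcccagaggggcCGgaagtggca
Kat2b: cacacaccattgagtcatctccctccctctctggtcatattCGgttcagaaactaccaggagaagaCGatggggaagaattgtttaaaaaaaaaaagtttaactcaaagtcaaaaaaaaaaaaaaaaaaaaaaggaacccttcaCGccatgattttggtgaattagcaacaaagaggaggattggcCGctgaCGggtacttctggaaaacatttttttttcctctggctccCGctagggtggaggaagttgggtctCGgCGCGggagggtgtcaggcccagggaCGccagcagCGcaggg

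These windows hold 49 CpG in Crebbp, 46 in Brd3, 19 in Kat5 and 11 in Kat2b. The median over 32851 RefSeq promoter windows of the same length is 7, so all 4 are above it, and so are the other members (Brd1 36, Brd2 32, Ep300 30 and Kat2a 19). G and C make up 82% of the Crebbp window and 47% of the Kat2b window, against a median of 52.7%. The letters TATAAA were in 0 of the 8 windows on either strand, and in 13.6% of all windows. GGGCGG, read by SP and KLF factors, was in 4 of 8 (Ep300, Crebbp, Brd1 and Brd3; 35.7% of all windows). CCGGAAG, an ETS motif, was in Kat5 and Brd2 (8.86% of all windows), and CACGTG, an E-box, was in Kat5 (7.15%). TGACG, the core of a CRE, was in Kat2a, Kat2b and Kat5 (20.8%), and CCAAT was in Kat2b and Kat5 (37.4%). In Kat5 the E-box begins 186 bases before the start and overlaps a TGACG match on the other strand that begins 189 bases before the start. These are matches of letters with no measurement of binding behind them.

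Total counts per library were 23094799 to 39341784, and each of the 8 genes had between 248 (Kat2b) and 19965 (Brd2) reads in a library, far above the floor of 3 counts used here (0.0763 to 0.13 CPM). Levels are CPM, counts normalised to the library total with TMM scaling factors, computed within the drug libraries and within the hairpin libraries. All 15 markers of SHH medulloblastoma and the granule cell lineage were above 1 CPM in every group, with summed levels of 1945 to 3550 CPM per library. Of 18 markers of other cell types, 7 or 8 were above 1 CPM in a group, and their sum was 29.4 to 63.0 CPM in the drug libraries and 43.8 to 296 CPM in the hairpin libraries. The haemoglobin gene Hbb-b1 had no count in any library, and Mog, Aif1, Aqp4, Olig2 and Ptprc, which define oligodendrocytes, microglia, astrocytes and leukocytes, stayed at or below 0.398 CPM.

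Per kilobase of merged exons (GENCODE vM21, build GRCm38, while the reads were aligned to mm9), the DMSO 24 h libraries had most Brd2, at 73.9 ± 4.63 CPM per kb (SD, n = 3). Kat2a followed at 59.2 ± 2.65, Brd3 at 39.3 ± 1.20, Brd1 at 28.6 ± 5.86, Kat5 at 24.4 ± 2.32, Ep300 at 14.3 ± 2.78, Crebbp at 6.71 ± 0.929 and Kat2b at 5.89 ± 1.30 CPM per kb. Of these neighbours, the libraries of Brd1 and Kat5 overlapped, and so did those of Crebbp and Kat2b. The order of the mean levels per kb was the same in JNJ 24 h and in the 3 hairpin groups. In both 2 h groups Brd1 stood above Brd3, and in JNJ 2 h Kat2b (4.56 ± 0.142) stood above Crebbp (3.90 ± 0.362). Brd2 was highest and Kat2a second in all 7 groups.

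After 24 h of quisinostat, 7 of the 8 transcripts were lower than with DMSO: Kat2b, Brd3, Kat5, Brd2, Brd1, Kat2a and Crebbp. None was higher, and Ep300 did not pass the test in this fit, which has no replicate block. Over 15 other settings, 5 to 8 members were called. The falls ranged from 35.7% (Crebbp) to 54.3% (Kat2b), with a median log2 change over the 8 genes of -0.79, against 0.01 over all genes tested. In the same comparison, 15.1% of all genes tested were called lower and 18.1% higher (edgeR's quasi-likelihood test, Benjamini-Hochberg adjusted p under 0.05). In all 8 genes every JNJ library was below every DMSO library, a pattern seen in 26.9% of all genes, and in 28.6% in the other direction. In RNA from whole cultures, fewer cells that hold a transcript and less of it per cell cannot be told apart. Of the 15 lineage markers, 6 were also called lower at 24 h (Atoh1, Gli1, Hhip, Zic4, Barhl1 and Pax6), and their summed level was 2975 to 3550 CPM with DMSO and 2021 to 2921 CPM with JNJ. The markers of other cell types summed to 29.4 to 63.0 CPM with DMSO and 34.9 to 54.9 CPM with JNJ, with 1 called lower (Gfap) and 1 higher (Col1a1), and their part in the result was not tested. The lower call was lost without JNJ 24 h replicate 1 or 3, with upper-quartile scaling or library totals, and with the compared groups alone.

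**Figure D1:**
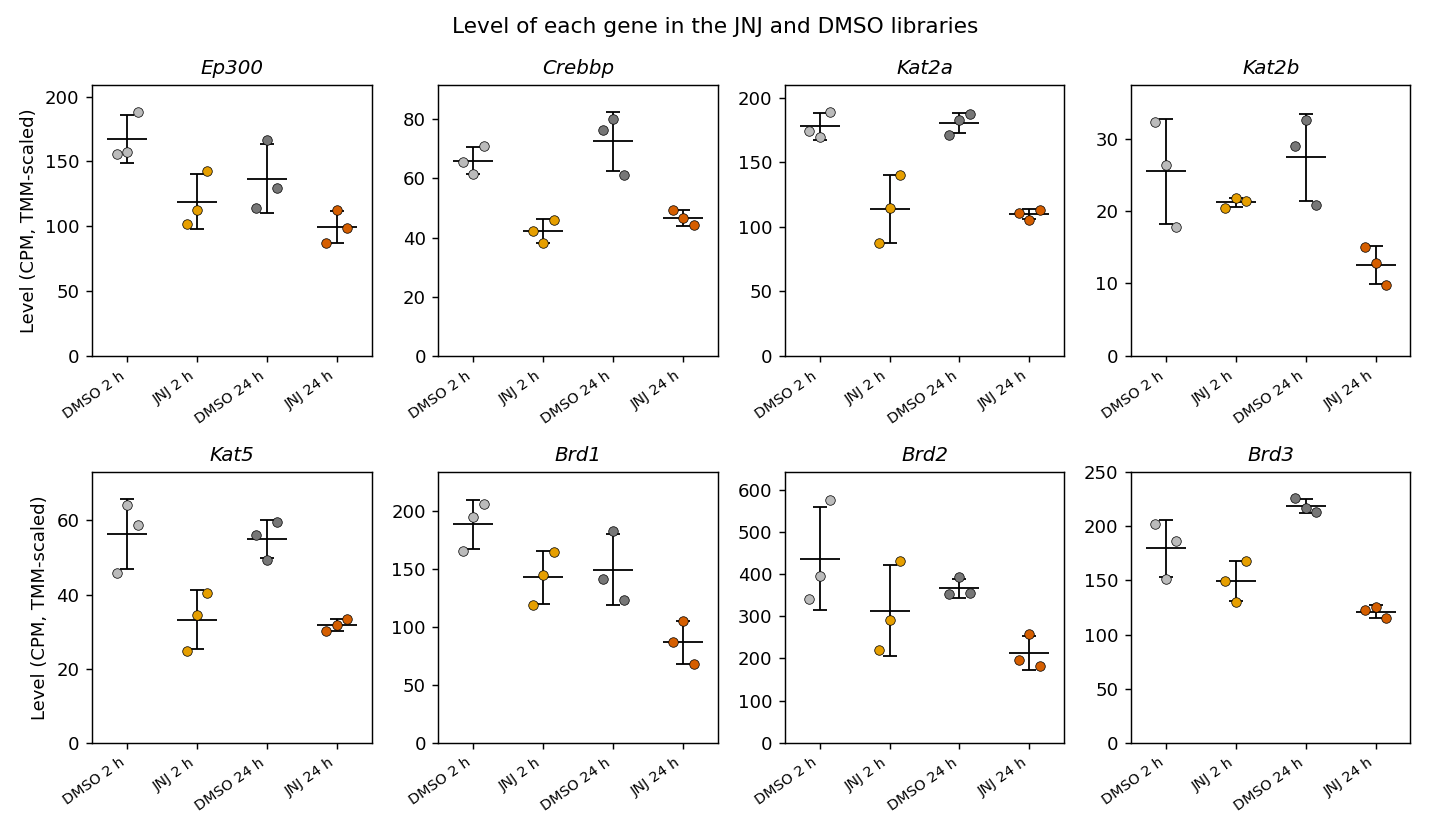
Level of each gene (CPM, linear axis from 0) in the 12 drug and solvent libraries, 1 point per library, with the mean and SD of 3 libraries as black lines. At 24 h all JNJ points lie below all DMSO points in each of the 8 panels, while at 2 h the groups overlap for Kat2b, Brd2 and Brd3.

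Kat2b showed the largest fitted change. It had 29.0, 32.5 and 20.8 CPM in the DMSO 24 h libraries and 15.0, 12.8 and 9.77 in the JNJ 24 h libraries. The highest JNJ library was thus below the lowest DMSO library, and the log2 change was -1.13 (SE 0.249, edgeR adjusted p = 0.0046). Its paralog Kat2a had 171, 183 and 187 CPM with DMSO and 111, 105 and 113 with JNJ. The spread within each group was small for this gene (SD 8.08 and 4.11 CPM), and the log2 change was -0.72 (SE 0.166, adjusted p = 0.00575).

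Of the genes of CBP and p300, only Crebbp was called at 24 h in the fit without a replicate block. Crebbp had 76.2, 80.3 and 61.2 CPM in DMSO 24 h and 49.2, 46.5 and 44.1 CPM in JNJ 24 h, and fell by 0.64 on the log2 scale (SE 0.152, edgeR adjusted p = 0.00682). Ep300 had 114, 166 and 130 CPM in DMSO 24 h and 87.2, 112 and 98.8 CPM in JNJ 24 h. Its lowest DMSO library (114.5) was only just above its highest JNJ library (112.4), and its log2 change of -0.46 (SE 0.186, 95% interval -0.86 to -0.06) had an edgeR adjusted p of 0.0745. With the replicate number of the labels as a block in the fit, the change of Ep300 was -0.46 with an adjusted p of 0.0274. The 95% interval of Crebbp, -0.97 to -0.31, overlapped that of Ep300, and the difference between the changes of the 2 genes was not tested.

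Kat5 had 56.1, 49.3 and 59.6 CPM in DMSO 24 h and 30.2, 31.8 and 33.3 CPM in JNJ 24 h. The 3 JNJ libraries were close together and below all DMSO libraries, and the log2 change was -0.79 (SE 0.195, edgeR adjusted p = 0.00806). Of the exon length of Kat5, 18.9% overlaps Rnaseh2c, a gene on the other strand that codes for a subunit of ribonuclease H2. Rnaseh2c also fell at 24 h, by 0.67 on the log2 scale (SE 0.178, adjusted p = 0.0117), and at 2 h its change of -0.20 had an adjusted p of 0.491. Which strand was counted is not stated in the labels, so reads of the overlap cannot be assigned to either gene.

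Of Brd1, Brd2 and Brd3, Brd3 had the lowest p. It had 226, 217 and 213 CPM in DMSO 24 h and 123, 126 and 115 CPM in JNJ 24 h, a log2 change of -0.85 (SE 0.153, edgeR adjusted p = 0.00134). Its 2 groups were far apart, with 126 as the highest JNJ value and 213 as the lowest DMSO value. Brd2, the most abundant of the 8 per kb, had 352, 393 and 354 CPM in DMSO 24 h and 197, 257 and 181 CPM in JNJ 24 h, a log2 change of -0.79 (SE 0.254, adjusted p = 0.0301). Brd1 had 142, 183 and 123 CPM against 86.6, 105 and 68.2 CPM, a log2 change of -0.78 (SE 0.203, adjusted p = 0.0106). Replicate 2 was the highest library of both groups for Brd1 and Brd2, and replicate 3 the lowest of the JNJ libraries.

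2 of these calls depended on single libraries. Brd2 was no longer called without DMSO 24 h replicate 1 (adjusted p = 0.0583), 2 (0.0719) or 3 (0.0604), without JNJ 24 h replicate 1 (0.0822) or 3 (0.111), or with library totals in place of scaling factors (0.053). Brd1 was no longer called without JNJ 24 h replicate 3 (0.0523).

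**Figure D2:**
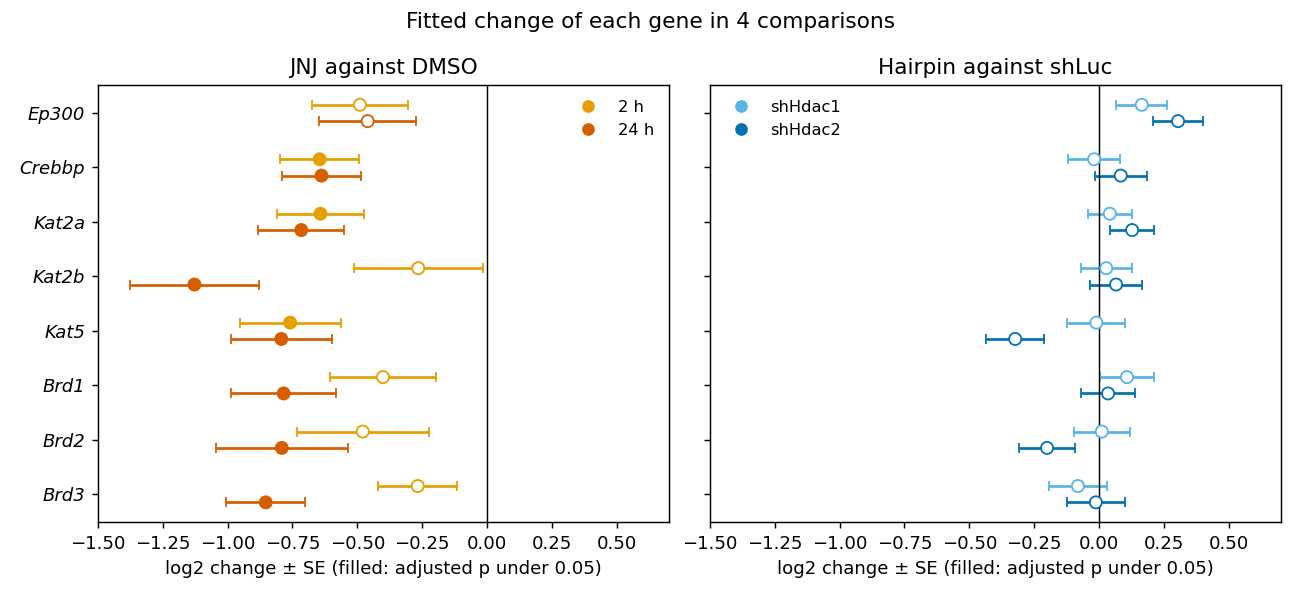
Fitted log2 change with its SE for each gene, in JNJ against DMSO at 2 h and 24 h (left) and in each hairpin against shLuc (right); filled points have an adjusted p under 0.05. The 24 h points span -1.13 to -0.46, and the hairpin points span -0.32 to 0.30 with none filled.

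Calls at 24 h varied with the level of a gene. Genes tested in both experiments were put in 10 classes of equal size by their mean level in shLuc libraries, which are no part of the drug comparison. In class 1, the lowest, 2.36% of genes were called lower at 24 h, and in class 10 the share was 32.0%. Calls of higher went the other way, from 31.1% to 3.62%. Kat2b was in class 5 (14.4% called lower), Kat5 in class 7 (20.6%), Crebbp in class 8 (22.1%), Ep300, Kat2a and Brd1 in class 9 (26.7%), and Brd2 and Brd3 in class 10. The part of expression level in the members' changes was not tested.

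**Figure D3:**
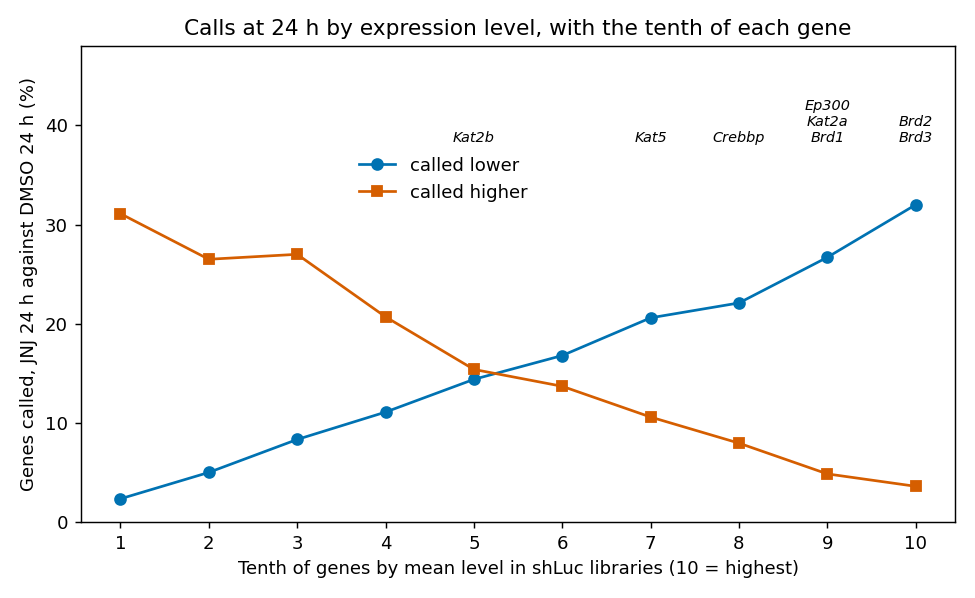
Percent of genes called lower (circles) and higher (squares) in JNJ 24 h against DMSO 24 h, by class of mean shLuc level (1 lowest, 10 highest), with the members written above their class. The share called lower climbs from 2.36% to 32.0%, and all 8 members are in classes 5 to 10.

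After 2 h of quisinostat, 3 of the 8 transcripts were lower: Crebbp, Kat2a and Kat5. None was higher. Over all genes tested, 4.59% were called lower and 9.11% higher by edgeR at this time. All 8 fitted changes were below 0, with a median of -0.48 on the log2 scale against 0.03 over all genes. In 5 of 8 (Ep300, Crebbp, Kat2a, Kat5 and Brd1) every JNJ library was below every DMSO library, against 11.7% of all genes, and 13.9% in the other direction. With the replicate number as a block, 4 members and 3455 genes were called, against 1982 genes without it.

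Kat5 had 45.8, 64.3 and 58.7 CPM in DMSO 2 h and 24.8, 34.5 and 40.4 CPM in JNJ 2 h, a log2 change of -0.76 (SE 0.195, edgeR adjusted p = 0.0224). Crebbp had 65.6, 61.7 and 70.9 CPM against 42.4, 38.2 and 46.1 CPM, a change of -0.65 (SE 0.152, adjusted p = 0.0151). The Crebbp groups were tight and separate at this time. Kat2a had 174, 169.8 and 189 CPM against 87.4, 114 and 139.7 CPM, a change of -0.64 (SE 0.166, adjusted p = 0.0226). Its JNJ libraries were more spread (SD 26.2 CPM) than its DMSO libraries (SD 10.2 CPM).

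The other 5 genes did not pass the test at 2 h. Ep300 had 156, 157 and 188 CPM with DMSO and 102, 112 and 143 CPM with JNJ (log2 change -0.49, 95% interval -0.89 to -0.09, edgeR adjusted p = 0.101). Brd1 had 165, 195 and 206 CPM against 119, 144 and 165 CPM (-0.40, interval -0.84 to 0.04, adjusted p = 0.21). In both genes the groups came close without overlapping. Brd2 had 340.4, 394 and 575 CPM against 219.8, 289.9 and 429.7 CPM (-0.48, interval -1.03 to 0.07, adjusted p = 0.231). Brd3 had 202, 151 and 186 CPM against 149.9, 130.5 and 168 CPM (-0.27, interval -0.60 to 0.06, adjusted p = 0.268), and Kat2b had 32.2, 26.4 and 17.8 CPM against 20.5, 21.8 and 21.4 CPM (-0.26, interval -0.80 to 0.27, adjusted p = 0.513). In Brd2, Brd3 and Kat2b the groups overlapped, and for Kat2b the spread lay in the DMSO libraries.

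The calls at 2 h rested on few libraries: JNJ 2 h replicate 3 was the highest JNJ library for 7 of the 8 genes and replicate 1 the lowest for 6. Crebbp was not called without JNJ 2 h replicate 2 (edgeR adjusted p = 0.0546). Kat2a was not called without DMSO 2 h replicate 3 (0.0568) or JNJ 2 h replicate 1 (0.0627) or 2 (0.0576), nor with a replicate block in the 6 compared libraries alone (0.0532). Kat5 was not called without DMSO 2 h replicate 2 (0.0832) or 3 (0.052) or JNJ 2 h replicate 1 (0.0749). None of the 3 was called when only the 6 compared libraries were fitted (0.0965, 0.132 and 0.114). In the other direction, Ep300 was called with the replicate block (log2 change -0.50, adjusted p = 0.0333). Without JNJ 2 h replicate 3 both Ep300 (-0.65, 0.0285) and Brd2 (-0.78, 0.0353) were called, giving 5 members. Leaving out that library also raised the calls over all genes, from 1982 to 3365, of which 1220 were lower and 2145 higher.

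The change at 24 h was compared with that at 2 h for each gene. No member passed this test of the difference (1.73% of all genes tested were called more negative at 24 h and 2.51% more positive). The differences were -0.86 for Kat2b (95% interval -1.62 to -0.10, edgeR adjusted p = 0.173), -0.59 for Brd3 (interval -1.05 to -0.12, adjusted p = 0.134) and between -0.38 and 0.03 for the other 6. For Crebbp the difference was 0.01 with an interval of -0.46 to 0.47. With the replicate block, which calls 2132 genes against 614 without it, Kat2b was called (-0.91, adjusted p = 0.0379). The 24 h and 2 h changes of a gene share no library, but they share the fit and its estimate of the spread. Residuals from group means also correlated between same-numbered libraries of the 2 times. The values were 0.375 to 0.605 for JNJ 2 h with JNJ 24 h and 0.504 to 0.603 for JNJ 2 h with DMSO 24 h. For DMSO 2 h they were 0.05 to 0.448 with JNJ 24 h and -0.153 to 0.551 with DMSO 24 h.

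Time in DMSO alone gave no call: 0 of 8 members and 0% of all 14467 genes were called lower or higher by edgeR between DMSO 24 h and DMSO 2 h, while 1417 genes had an unadjusted p under 0.05, DESeq2 called 16 genes and the fit with a replicate block 108. The members' changes were -0.34 (Brd1) to 0.29 (Brd3). Brd3 was the only member whose DMSO groups did not overlap, with 213 to 226 CPM at 24 h and 151 to 202 CPM at 2 h (adjusted p = 0.528). Groups that did not overlap were found in 8.25% of all genes in the lower direction and 8.94% in the higher.

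The hairpins lowered their targets. Hdac1 had 28.6 to 32.6 CPM in shHdac1 and 88.8 to 101 CPM in shLuc, a log2 change of -1.63 (SE 0.084, edgeR adjusted p = 0.000165). Hdac2 had 48.1 to 53.8 CPM in shHdac2 and 301 to 344 CPM in shLuc, a log2 change of -2.66 (SE 0.086, adjusted p = 3.49e-06). Hdac2 in shHdac1 (321 ± 17.5 CPM, SD, n = 3) and Hdac1 in shHdac2 (103 ± 4.82 CPM) were not called.

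With shHdac1, 0 of the 8 writers and readers were called, and their log2 changes lay between -0.08 (Brd3) and 0.16 (Ep300). In this comparison edgeR called 0.595% of all genes lower and 0.154% higher. No member had groups that did not overlap (8.29% of all genes lower, 8.42% higher). The 95% intervals of all 8 changes lay between -0.34 and 0.39. The replicate block called 523 genes against 102, and again 0 members.

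With shHdac2, again 0 of 8 were called, among 1.03% of all genes lower and 0.654% higher. Ep300 had 118, 106 and 134 CPM in shLuc and 152, 155 and 137 CPM in shHdac2. All 3 shHdac2 libraries were above the shLuc libraries, and the log2 change was 0.30 (95% interval 0.08 to 0.53, edgeR adjusted p = 0.174). It was called without shLuc replicate 3 (0.41, adjusted p = 0.0244), the library that was the highest of shLuc in 7 of the 8 genes. Leaving out that library also raised the calls over all genes, from 229 to 1212, of which 624 were lower and 588 higher. Kat5 had 50.5, 51.2 and 66.6 CPM in shLuc and 45.2, 43.0 and 46.4 CPM in shHdac2, all below shLuc, with a log2 change of -0.32 (interval -0.57 to -0.07, adjusted p = 0.203). Groups that did not overlap were found in 10.6% of all genes in the lower direction and 10.7% in the higher. Brd2 had 375, 356 and 466 CPM in shLuc and 347, 329 and 366 CPM in shHdac2, which overlapped (-0.20, adjusted p = 0.411). The replicate block called 801 genes against 229, and 0 members.

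Between the hairpins, 0 of 8 members were called in shHdac1 against shHdac2 (1.17% of all genes lower, 0.889% higher). Kat5 had 56.2, 55.1 and 55.9 CPM in shHdac1, above all shHdac2 libraries, a log2 difference of 0.31 (SE 0.112, edgeR adjusted p = 0.226). Brd2 had 387, 403 and 416 CPM in shHdac1, also above all shHdac2 libraries, a difference of 0.21 (SE 0.107, adjusted p = 0.434). Kat2a was lower in every shHdac1 library than in any shHdac2 library, with a difference of -0.09 (adjusted p = 0.738). Groups that did not overlap were found in 13.1% of all genes in the lower direction and 13.5% in the higher. The replicate block called 886 genes against 280, and 0 members. With a replicate block in the 6 compared libraries alone, an alternative chosen after seeing the data that calls 4086 genes, both Kat5 (0.30, adjusted p = 0.00275) and Brd2 (0.20, adjusted p = 0.0153) were called higher in shHdac1.

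The other 5 genes stayed in narrow ranges over all 9 hairpin libraries. Crebbp had 65.1 to 84.3 CPM, Kat2a 142 to 177, Kat2b 28.7 to 35.1, Brd1 121 to 151 and Brd3 179 to 242 CPM. The 2 hairpin comparisons with shLuc share the shLuc libraries.

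**Figure D4:**
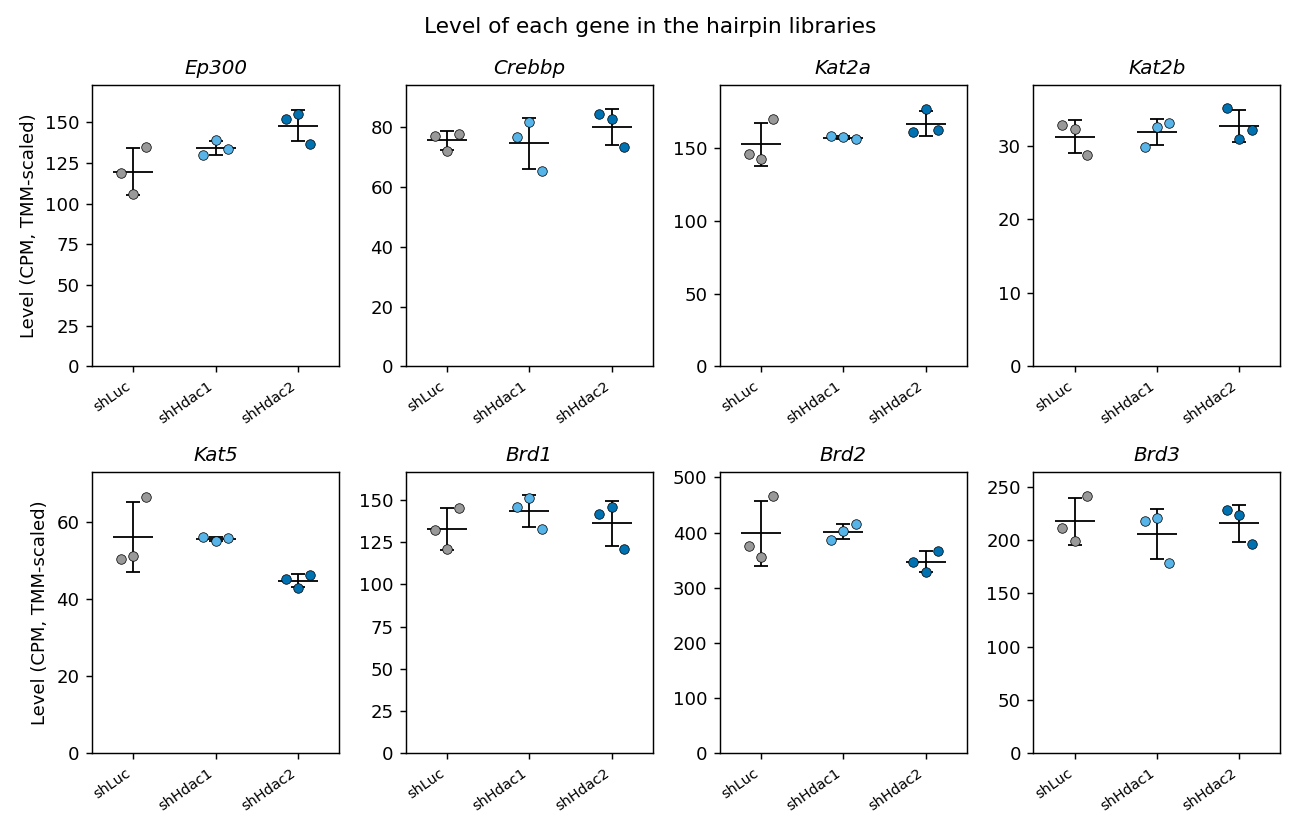
Level of each gene (CPM, linear axis from 0) in the 9 hairpin libraries, 1 point per library, with the mean and SD of 3 libraries as black lines. Kat5 in shHdac2 lies below the other groups (43.0 to 46.4 CPM) and Ep300 in shHdac2 lies above shLuc (137 to 155 CPM), and neither passed the test.

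Other genes of the same pathway were read from 8 lists (137 genes, 136 of them in the table). The lists were chosen with earlier results of these data known, so their counts are descriptive. Some genes stand on several lists, for example Brpf3, Meaf6 and Csrp2bp, and are counted in each. Their counts at 24 h stand beside 15.1% of all genes called lower and 18.1% called higher, with 20.6% to 32.0% called lower in level classes 7 to 10, and those at 2 h beside 4.59% and 9.11%. These shares are of the fit without a replicate block, so list counts given below with the block cannot be read against them. With the block 1352 genes were called lower and 2103 higher at 2 h. The share of all genes called with the block at 24 h is not given here. At 24 h, the list of MYST complex genes had 7 of 11 tested genes lower and 0 higher, against 15.1% of all genes called lower. Their median log2 change was -0.70. Besides partners of Brd1, this list holds other scaffolds of such complexes, so the count is not one of partners alone. Brpf3, a sister scaffold of Brd1, fell from 45.1 ± 2.22 to 10.9 ± 1.92 CPM (SD, n = 3, log2 change -2.05). Ing5, a reader of methylated histone H3 in these complexes, fell from 83.7 ± 6.18 to 21.9 ± 4.93 CPM (-1.93), and Meaf6, a small subunit of them and of the TIP60 complex, from 42.8 ± 2.61 to 12.3 ± 1.28 CPM (-1.80). These 3 had edgeR adjusted p of 9.08e-05, 4.51e-05 and 3.56e-05. At 2 h, 4 of the 11 were lower: Ing5 (-1.74), Brpf3 (-1.504), Kat6b (-0.89) and, named after its value was seen, Meaf6 (-0.63).

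The TIP60 complex partners of Kat5 had 8 of 17 lower at 24 h and 0 higher (median -0.45), among them the scaffold genes Epc1 (-1.26) and Epc2 (-1.10), and 13 lower with the replicate block. At 2 h, 6 of 17 were lower, with Epc2 (-1.86), Yeats4 (-1.66), a reader of acetylated histones, and Epc1 (-1.25) first. The SAGA and ATAC partners of Kat2a and Kat2b had 7 of 24 lower at 24 h and 0 higher (median -0.40), and 11 lower with the replicate block. The share of 7 in 24 is near the 26.7% called lower among all genes of level class 9. They include Ccdc101 (Sgf29, -1.05), which reads methylated histone H3, Taf5l (-0.996) and Tada3 (-0.96), and at 2 h 5 of 24 were lower. Those 5 are Zzz3 (-1.13), Csrp2bp (Kat14, -0.94) and Taf5l (-0.82) and, named after their values were seen, Tada3 (-0.80) and Ccdc101 (-0.68). Taf5l at 2 h was not called in 7 of 15 other settings, its adjusted p reaching 0.115.

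The other histone acetyltransferases had 5 of 15 lower at 24 h and 0 higher (median -0.44): Kat6b (-1.49), Mcm3ap (-1.17), Hat1 (-1.07), which acetylates newly made histone H4, and, named after their values were seen, Csrp2bp (-0.94) and Elp3 (-0.49). With the replicate block 8 were lower. At 2 h, 3 of 15 were lower, Csrp2bp (-0.94), Kat6b (-0.89) and Mcm3ap (-0.75), and with the replicate block 4 were lower and 1 higher. Other bromodomain and acetyl-lysine reader genes had 19 of 36 lower and 3 higher at 24 h (median -0.60), against 15.1% and 18.1% of all genes. Atad2, a bromodomain ATPase, fell from 295 ± 33.0 to 114 ± 37.2 CPM (-1.37, edgeR adjusted p = 0.00326), and Zmynd11, a reader of histone H3.3, fell from 117 ± 21.9 to 46.1 ± 0.745 CPM (-1.34). The testis BET gene Brdt rose from 2.03 ± 0.842 to 10.5 ± 0.506 CPM (2.37, adjusted p = 0.00137), opposite to Brd2 and Brd3. Dpf3 (1.30) and Dpf1 (0.81), subunits of the neural BAF remodeller, also rose. Dpf1 was not called without DMSO 24 h replicate 2 (adjusted p = 0.0849) or 3 (0.0753), or JNJ 24 h replicate 1 (0.0681) or 2 (0.0549).

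At 2 h, 2 of the 36 readers were lower (Yeats4 and Brpf3) and 3 higher: Dpf1 (1.70), Brdt (1.60) and Baz2a (1.38), a nucleolar remodeller subunit at 202 ± 48 CPM with JNJ and 77.3 ± 14.7 CPM with DMSO. Brdt at 2 h was not called in 5 of 15 other settings, and the replicate block called 7 readers lower and 3 higher. The elongation partners of BET readers had 3 of 19 lower and 2 higher at 24 h (median -0.10). Larp7, which holds P-TEFb in its inactive particle, fell by 1.07, and Cdk8 of the Mediator kinase module by 0.76. Without DMSO 24 h replicate 1 or JNJ 24 h replicate 3 the list had 2 lower and 1 higher. Hexim2 (-0.72) was not called in 9 of 15 other settings. The 2 higher genes, named after their values were seen, were Ell2, with 3.78 to 6.98 CPM against 1.04 to 2.20 CPM, and Ell3, with 0.726 to 1.30 CPM against 0 to 0.0846 CPM.

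The partners of CBP and p300 had 7 of 17 lower and 1 higher at 24 h (median -0.29). Mybl2, a transcription factor of the cell cycle, fell from 53.3 ± 9.63 to 14.8 ± 2.90 CPM (-1.85), Atf1, a relative of CREB, fell by 1.40, and Cited2, which binds CBP and p300, fell from 109 ± 14.3 to 41.5 ± 2.74 CPM (-1.39). The 1 higher gene, named after its values were seen, was Cited4, which had no count in any DMSO 24 h library and 0.352 to 0.57 CPM with JNJ. At 2 h, 4 of 17 were lower and 1 was higher, against 5 and 3 with the replicate block. The lower genes were Atf1 (-2.00), Hif1a (-0.95), Cited2 (-0.88) and, named after its value was seen, Creb1 (-0.85). The groups of Creb1 overlapped, with 71.1 to 116 CPM with JNJ and 114 to 197 CPM with DMSO. The higher gene, also named after its values were seen, was Cited4. It had 1 to 5 counts in the DMSO 2 h libraries, around the floor of 3, and its change has no SE. Elongation partners at 2 h had 1 lower, Larp7 (-0.90), and 2 higher, Ell (0.88) and Whsc1l1 (Nsd3, 0.70), against 3 and 2 with the replicate block.

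Of the 11 genes on the list of acetyl-CoA supply, the donor of the acetyl group, 4 were higher at 24 h, 0 lower and 7 not called (median 0.39), beside 18.1% of all genes called higher. The subunits of pyruvate dehydrogenase were among those not called, with log2 changes of -0.04 (Pdha1), -0.04 (Pdhb) and -0.33 (Dlat). Acss2, which makes acetyl-CoA from acetate outside mitochondria, rose from 19.4 ± 4.32 to 103 ± 24.5 CPM (SD, n = 3, log2 change 2.41, edgeR adjusted p = 3.33e-05). Pdk2, a kinase that inhibits pyruvate dehydrogenase, rose by 1.34 and Slc25a1, the mitochondrial citrate carrier, by 1.26 on the log2 scale. The fourth, named after its values were seen, was Acss1, the mitochondrial relative of Acss2, at 4.43 to 9.66 CPM against 0.633 to 1.72 CPM. At 2 h, 0 of these 11 were called. Over all lists, the calls at 24 h of Elp3 and Ell2 were lost in 4 and 2 of 15 other settings, and at 2 h those of Ccdc101, Cited2, Cited4, Creb1, Ell, Hif1a, Kat6b, Mcm3ap, Meaf6, Tada3 and Whsc1l1 in 1 to 5 of 15.

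**Figure D5:**
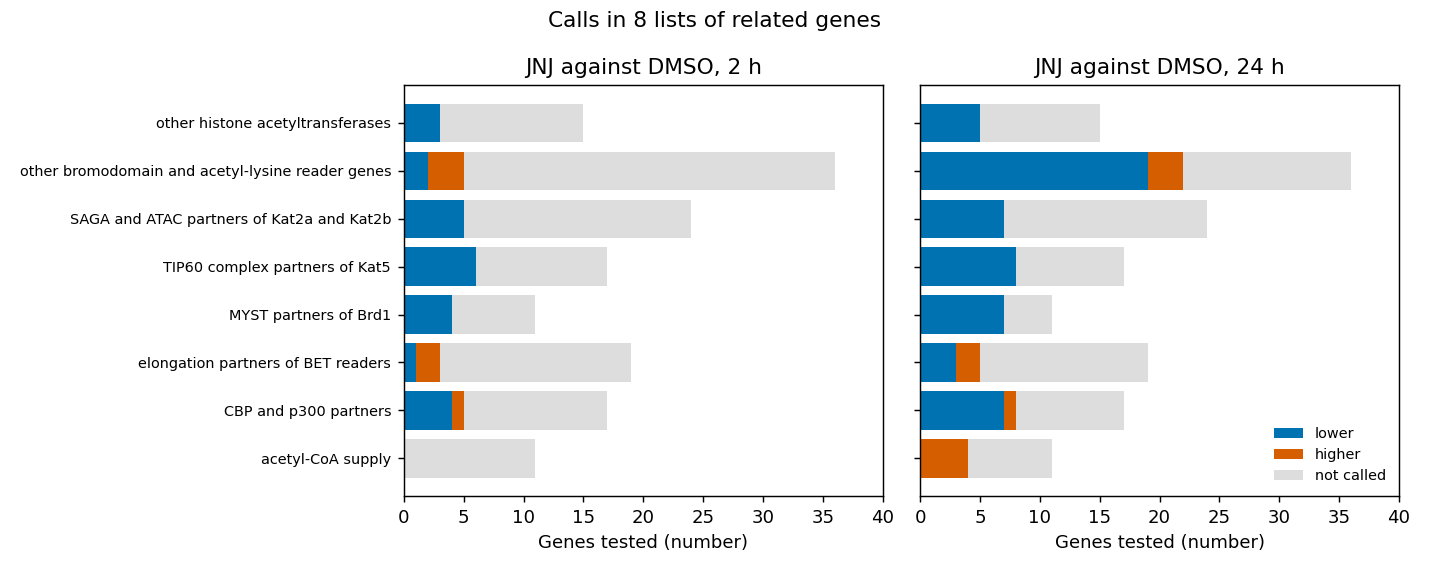
Number of genes called lower, called higher and not called in each list of pathway genes, in JNJ against DMSO at 2 h (left) and 24 h (right). The readers have 19 lower and 3 higher of 36 at 24 h, and the acetyl-CoA list 0 lower and 4 higher of 11.

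In the hairpin libraries few pathway genes were called. With shHdac1 these were Acly, which makes acetyl-CoA from citrate and fell from 665 ± 7.91 to 399 ± 8.16 CPM (SD, n = 3, -0.74, edgeR adjusted p = 0.0048), the coactivator Ncoa1 (-0.58, 0.0474) and the CREB coactivator Crtc1 (-0.51, 0.0377), all lower. With shHdac2 they were Eny2, of the SAGA deubiquitinase module (-0.96, 0.0195), and Atf1 (-0.55, 0.0373), both lower. Between shHdac1 and shHdac2, Acly (-0.74), Ncoa1 (-0.51), the reader Cecr2 (-0.52) and Aff1 of the super elongation complex (-0.47) were lower in shHdac1, and Atf1 (0.80) and Eny2 (0.75) were higher. These calls were lost in 1 (Acly), 8 (Ncoa1), 5 (Cecr2), 6 (Aff1), 4 (Atf1) and 7 (Eny2) of 15 other settings, with adjusted p up to 0.539 (Ncoa1) and 0.258 (Aff1), and apart from Acly all were lost without shHdac1 replicate 1 or 2. Each call against shLuc was lost in at least 1 fit without a library, for example Acly without shHdac1 replicate 2 (0.0621), Ncoa1 without shHdac1 replicate 1 (0.215), Crtc1 without shHdac1 replicate 2 (0.209), Eny2 without shHdac2 replicate 2 (0.117) and Atf1 without shHdac2 replicate 1 (0.181).

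For each member, the genes with the most alike profile were found by Pearson's r of log2 CPM over the 12 drug and solvent libraries, among 10356 genes. The first in rank were Zrsr2 for Ep300, Rbm6 for Crebbp, Cpsf2 for Kat2a, Pde7a for Kat2b, Cwc22 for Kat5, Mafg for Brd1, Axin1 for Brd2 and Ash1l for Brd3, with r from 0.949 (Zrsr2) to 0.983 (Cpsf2). The second in rank were Srp68, Polr3e, Nhlrc2, Ptpn12, Ccdc12, Zfp740, Gtf2f1 and Map4k4, in the same order, with r from 0.942 (Srp68) to 0.982 (Nhlrc2). These values describe 12 libraries that share their treatment groups, replicate numbers and scaling, and no test was made of them.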

How the data were processed

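RNA of 21 SMB21 libraries was analysed from a table of raw read counts per gene symbol that the authors deposited, 1 column per library. Per the labels' protocols, stranded TruSeq mRNA libraries from 500 ng of RNA were read as 75 bp single ends on a NextSeq 500. STAR 2.5.1b and build mm9 are named in the submitters' processing notes. The annotation, the strand and the treatment of multi-mapped reads were not stated there.

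Drug (12) and hairpin (9) libraries each had a fit of their own by group (edgeR 4.0.16, R 4.3.3), with filterByExpr (minimum count 10, total 15), TMM scaling and two-sided quasi-likelihood tests. A gene was called where the Benjamini-Hochberg adjusted p, taken across every tested gene, was under 0.05. The common biological coefficient of variation was 0.294 and 0.209. The code was tested on simulated data. SEs are of the log2 change. Alternatives were other scalings, no filter, DESeq2 1.42.0, other sets of libraries, leaving out each library and a replicate block. Residuals of same-numbered libraries correlated at 0.191 to 0.72 at 2 h, 0.627 to 0.669 at 24 h and 0.251 to 0.869 between hairpin groups, all over the 0.1 taken here as pairing, but at -0.153 to 0.551 between DMSO 2 h and DMSO 24 h. Different numbers correlated at -0.627 to 0.16 at 2 h and -0.397 to -0.193 at 24 h. Residuals were taken from group means, so positive values for same numbers force lower ones for different numbers. The latter are therefore no separate evidence of pairing. In the hairpin groups replicates 1 and 2 correlated across numbers as well (0.27 to 0.758), with replicate 3 apart from both, so there the block does not mark single pairs.

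Of each list, up to 3 called genes each way with the largest change, at least 5 CPM and groups that do not overlap were named, and in the hairpin comparisons every called list gene. Members and lists were chosen with earlier results of these data known.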

Additional observations from a re-analysis of the deposited data

Results flagged for a closer look

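For 4 genes of the pathway lists the quisinostat effect differed between the times, by edgeR's quasi-likelihood test of the difference (log2 change at 24 h minus that at 2 h, Benjamini-Hochberg adjusted over all genes). Acss2 changed by 2.41 at 24 h and 0.03 at 2 h, a difference of 2.37 (adjusted p = 0.00435, and at most 0.0163 over 19 other settings). Meaf6 changed by -1.80 and -0.63, a difference of -1.17 (adjusted p = 0.0186), which was not called in 4 of 19 other settings (up to 0.0594, without DMSO 2 h replicate 2). Mybl2 changed by -1.85 and -0.28, a difference of -1.57 (adjusted p = 0.0265), not called in 6 of 19 (up to 0.0793, without JNJ 24 h replicate 3). Hat1 changed by -1.07 and -0.12, a difference of -0.95 (adjusted p = 0.037), not called in 12 of 19 (up to 0.0985, without JNJ 24 h replicate 3).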

How the results depend on the processing

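All 8 members stayed below 0 in all 120 alternative values at 2 h and all 120 at 24 h. Members called at 24 h ranged from 5 to 7 when a library was left out and from 5 to 8 over all 15 other settings. Members called ranged from 1 to 5 at 2 h when a library was left out, 0 with the compared groups alone, and 0 to 1 for shHdac2. With a replicate block 1 member differed between the times, as in the fit of all 21 libraries, and for shHdac1 against shHdac2 1 was called with the compared groups alone and 2 when a block was added to them, an alternative chosen after seeing the data.

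Genes called moved more. With the replicate block there were 3455 at 2 h, 2132 for the difference between times, 108 for DMSO time, 523 for shHdac1, 801 for shHdac2 and 886 between hairpins; the block in the compared groups alone gave 8948 at 24 h, 0, 48 and 4086 for the hairpin comparisons in that order. The compared groups alone gave 650 at 2 h, 5, 19 and 603. All 21 libraries gave 3185 at 2 h, 1722, 8, 27 and 76. DESeq2 gave 1503, 16, 561, 819 and 842, and no filter gave 2 for DMSO time. Without a library the counts were 1043 to 3365 at 2 h, 3393 to 4021 at 24 h, 145 to 1156 for the difference, 0 to 44 for DMSO time, 2 to 1512 for shHdac1, 12 to 1212 for shHdac2 and 30 to 272 between hairpins. Of the pathway lists at 2 h, the CBP and p300 partners went from 5 calls to 1 without DMSO 2 h replicate 1 and the SAGA and ATAC partners from 5 to 2 without DMSO 2 h replicate 2 or JNJ 2 h replicate 1, and the elongation partners from 3 to 1 without DMSO 2 h replicate 1 or 2 or JNJ 2 h replicate 1; the readers went from 5 to 12 without JNJ 2 h replicate 3. At 24 h the elongation partners went from 5 calls to 3 without DMSO 24 h replicate 1 or JNJ 24 h replicate 3. The counts of the report were 1982, 4791, 614, 0, 102, 229 and 280.

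Scaling moved the median of all genes at 24 h from 0.01 to 0.12 (upper quartile) and 0.17 (library totals), and the share of calls that were lower from 45.5% to 36.2% and 31.7%; at 2 h the upper quartile moved it from 33.5% to 45.5%. Relative to that median Brd3 at 24 h stayed at -0.87, -0.86 and -0.86. A change of scaling shifts all genes by nearly the same amount, so this value could hardly move and is no check of the result. The 24 h change of Ep300 went from -0.46 to -0.30 with library totals, and Brd2 was then not called (edgeR adjusted p = 0.053). At 2 h the upper quartile called Ep300 (edgeR adjusted p = 0.0498).

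Signs turned among values that were not called. For the difference between times, Kat2a was 0.11 and 0.078 and Kat5 0.149 and 0.115 with upper quartile and library totals; library totals gave 0.068 for Kat5 in DMSO time, and -0.003 for Brd2 and -0.001 for Hdac2 with shHdac1. Without a library, the difference between times was -0.11 to 0.10 for Crebbp, -0.089 to 0.204 for Ep300, -0.24 to 0.10 for Kat2a and -0.21 to 0.13 for Kat5. DMSO time gave -0.40 to 0.001 for Brd2, -0.01 to 0.074 for Kat2a, -0.094 to 0.317 for Kat2b and -0.15 to 0.077 for Kat5. For shHdac1 these were -0.065 to 0.138 (Brd2), -0.14 to 0.009 (Brd3), -0.088 to 0.068 (Crebbp), -0.006 to 0.13 (Kat2a), -0.029 to 0.075 (Kat2b), -0.079 to 0.133 (Kat5) and -0.024 to 0.077 (Hdac2). For shHdac2 they were -0.029 to 0.122 (Brd1) and -0.072 to 0.081 (Brd3), and between hairpins -0.015 to 0.12 (Brd1), -0.14 to 0.013 (Brd3) and -0.087 to 0.018 (Kat2b). The cause was not tested.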
